A study of Mus musculus with 11 samples.

Results

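The oligodendrocyte and myelin genes comprised 29 genes, chosen by symbol as the transcripts of myelin sheath proteins, myelin lipid and metabolic enzymes, oligodendrocyte transcription factors, other oligodendrocyte products and oligodendrocyte precursor markers. All 29 symbols were matched to an Ensembl identifier among the 50686 genes of the count tables. They were followed in RNA-Seq of tumours that GL261 cells, a mouse glioma line, formed after intracranial injection into C57BL/6 mice aged 6 weeks. All hosts carried floxed Rheb1, received tamoxifen 3 weeks before the injection, and gave tissue 3 weeks after it. Per the study's methods only the deleted mice carried the Cx3cr1-CreERT2 knock-in and the controls had no Cre, so the Cre allele and the loss of Rheb1 cannot be told apart here. The labels name the genotypes WT (Rheb1 fl/fl) and Rheb1 KO (Cx3cr1-Rheb1 Δ/Δ). The Cre driver is inducible and acts in Cx3cr1+ cells such as microglia, so neither the tumour cells nor the oligodendrocytes were its target. The design deletes Rheb1 in these cells and does not remove the cells. Per the study, a part of the tumour macrophages derived from bone marrow also carried the reporter of Cre. Bulk tumour RNA came from fixed, paraffin-embedded tissue of 3 Rheb1 fl/fl mice (WT35, WT38 and WT110) and 3 Cx3cr1-Rheb1 Δ/Δ mice (KO26, KO36 and KO37). Microglia-derived tumour-associated macrophages (TAM-MG), sorted as CD11b+ CD45low cells, came from 2 Rheb1 fl/fl mice (WT74 and WT78) and 3 Cx3cr1-Rheb1 Δ/Δ mice (KO54, KO63 and KO65). The labels do not say which libraries, if any, share a mouse.

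Oligodendrocytes wrap axons of the central nervous system in myelin, a multilayered membrane that is rich in the galactolipids made by Ugt8a and Fa2h and compacted by proteins such as Mbp. They arise from precursors that express Pdgfra and Cspg4, pass through a committed stage marked by Gpr17, Bcas1 and Enpp6, and mature under the transcription factors Olig2, Sox10 and Myrf. Tumours that grow in the brain enclose host myelin and oligodendrocytes, and glioma cells can themselves express lineage genes such as Olig1, Olig2, Sox10 and Pdgfra. In bulk RNA, fewer cells of a type cannot be told apart from less RNA per cell, nor host transcripts from tumour cell transcripts.

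The promoters of 6 members are shown, as 300-base windows, picked by their values in the bulk comparison. Car2 and Gpr17 are not among them. Ugt8a, Aspa, Enpp6 and Opalin had the most negative fold changes in Cx3cr1-Rheb1 Δ/Δ tumours after Gpr17, Apod had the largest positive fold change, and Mobp is a structural gene whose groups overlapped. RefSeq promoter entries (GRCm38.p6, 250 bases before to 50 after an annotated start) were found for 20 of 29 members. Capitals mark matches, on either strand, to the SOX-type hexamers ACAAAG or ACAATG and to the MYRF-type heptamers CTGGCAC or CTGGTAC. The windows lie at chr3:125938603-125938902 (minus strand, Ugt8a), chr11:73324588-73324887 (minus, Aspa, an internal start of the gene), chr8:46986637-46986936 (plus, Enpp6), chr19:41077064-41077363 (minus, Opalin), chr16:31314759-31315058 (minus, Apod) and chr9:120149492-120149791 (plus, Mobp), each read 5′ to 3′ on the strand of the gene.
Ugt8a: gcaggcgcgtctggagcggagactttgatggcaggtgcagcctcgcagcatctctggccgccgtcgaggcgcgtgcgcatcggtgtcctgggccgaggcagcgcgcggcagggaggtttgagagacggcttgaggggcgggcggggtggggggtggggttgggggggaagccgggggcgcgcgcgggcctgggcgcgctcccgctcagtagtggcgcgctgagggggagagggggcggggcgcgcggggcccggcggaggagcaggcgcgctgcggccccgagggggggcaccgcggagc
Aspa: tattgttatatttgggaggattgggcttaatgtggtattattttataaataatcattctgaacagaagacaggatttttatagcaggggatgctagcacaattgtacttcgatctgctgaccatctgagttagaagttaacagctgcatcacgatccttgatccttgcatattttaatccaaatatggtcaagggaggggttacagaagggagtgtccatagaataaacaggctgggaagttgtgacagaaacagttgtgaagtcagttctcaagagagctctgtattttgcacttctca
Enpp6: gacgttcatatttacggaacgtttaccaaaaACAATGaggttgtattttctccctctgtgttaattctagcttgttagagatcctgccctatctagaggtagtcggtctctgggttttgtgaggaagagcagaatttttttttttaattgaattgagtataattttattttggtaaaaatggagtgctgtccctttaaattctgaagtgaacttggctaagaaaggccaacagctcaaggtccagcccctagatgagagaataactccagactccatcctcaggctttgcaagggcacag
Opalin: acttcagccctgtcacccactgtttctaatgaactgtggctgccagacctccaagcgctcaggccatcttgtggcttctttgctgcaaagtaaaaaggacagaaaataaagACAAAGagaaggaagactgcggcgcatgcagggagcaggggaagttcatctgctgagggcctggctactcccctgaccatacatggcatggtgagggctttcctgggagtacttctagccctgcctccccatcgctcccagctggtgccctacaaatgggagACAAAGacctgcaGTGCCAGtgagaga
Apod: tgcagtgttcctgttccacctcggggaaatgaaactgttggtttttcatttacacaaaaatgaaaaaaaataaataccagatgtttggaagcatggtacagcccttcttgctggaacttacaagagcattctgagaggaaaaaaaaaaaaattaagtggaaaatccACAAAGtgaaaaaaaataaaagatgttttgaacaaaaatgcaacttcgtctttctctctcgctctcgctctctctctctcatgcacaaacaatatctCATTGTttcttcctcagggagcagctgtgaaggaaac
Mobp: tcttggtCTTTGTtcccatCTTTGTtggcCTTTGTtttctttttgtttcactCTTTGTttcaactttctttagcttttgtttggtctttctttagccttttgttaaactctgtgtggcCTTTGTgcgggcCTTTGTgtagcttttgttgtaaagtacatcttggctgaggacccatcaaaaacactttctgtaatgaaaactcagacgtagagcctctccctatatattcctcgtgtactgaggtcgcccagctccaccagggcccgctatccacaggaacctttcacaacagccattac
The Mobp window held 6 SOX-type matches, the Opalin and Apod windows 2 each and the Enpp6 window 1. The Ugt8a and Aspa windows held none of these letters. The only MYRF-type match among the windows shown was in Opalin. Of all 32851 promoter entries of this length, 28.6% held a SOX-type and 7.1% a MYRF-type match. Among the members with an entry, 10 of 20 held a SOX-type match and 4 of 20 a MYRF-type match, in at least 1 of their 26 entries. The matches are a description of these windows and say nothing of binding.

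Bulk libraries held 14940787 to 21991348 counts and TAM-MG libraries 20765767 to 29947977, and 3 counts, used here as the floor, corresponded to 0.1 to 0.201 CPM, the count scaled to library size. Rheb, the targeted gene, stood at 346, 234 and 328 CPM in WT35, WT38 and WT110 and at 224, 125 and 145 CPM in KO26, KO36 and KO37, and the groups did not overlap (log2 fold change -0.88 ± 0.32 SE, adjusted p = 0.426 in edgeR's quasi-likelihood test). In TAM-MG, where the Cre driver acts, Rheb stood at 67.7 to 71.0 CPM in the 3 Cx3cr1-Rheb1 Δ/Δ libraries. The 2 Rheb1 fl/fl libraries held 86.4 and 164 CPM (log2 fold change -0.85 ± 0.34 SE, adjusted p = 0.552 in the same edgeR test). The floxed segment is 1 exon of the gene, and the counts cover the whole gene. WT35 held 10643 Xist and 0 Ddx3y counts, while the other bulk libraries held at most 5 Xist counts. KO37 had the lowest summed level of 15 neuronal genes (1967 CPM, against 3048 to 5554 in the other 5 bulk libraries) and the highest of 10 proliferation genes (1744 against 476 to 1393 CPM). KO36 had the most choroid plexus RNA (3662 CPM over 6 genes, against 70.7 to 1207). The 15 microglia and macrophage genes summed to 2592 to 4735 CPM in Rheb1 fl/fl and 756 to 1652 CPM in Cx3cr1-Rheb1 Δ/Δ tumours, and all 15 had negative fold changes. The part of these library differences in the values below was not tested, and values with a library left out are given beside the members that a single library moved far. Schwann cells, which form myelin in peripheral nerve, were looked for with 5 genes, which summed to 16.2 to 64.0 CPM, beside 1714 to 3272 CPM for the 12 structural myelin genes.

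The first question was whether deletion of Rheb1 in Cx3cr1+ cells went along with a change of oligodendrocyte transcripts in the whole tumour. As a share of all counts the 29 members did not separate the genotypes. They took 0.431%, 0.485% and 0.495% of the counts in WT35, WT38 and WT110, and 0.387%, 0.594% and 0.412% in KO26, KO36 and KO37. All 29 members passed the filter on low counts. Of these, 20 had a negative fold change and 9 a positive one, beside 49.8% negative among the 17028 genes tested, and their median log2 fold change was -0.56, beside 0.0034 for all genes. No member passed edgeR's quasi-likelihood test (adjusted p under 0.05 and a fold of at least 1.5), and neither did any other gene (0% lower and 0% higher, smallest adjusted p = 0.0805). At an unadjusted p under 0.05, 6 members were lower and 2 higher, where 5.19% and 3.82% of all genes were. The Cx3cr1-Rheb1 Δ/Δ tumours lay wholly below the Rheb1 fl/fl tumours for 7 members and wholly above for 2, against 9.2% and 7.83% of all genes. With the likelihood ratio test of edgeR, which the study names, 4 members passed as lower (Ugt8a, Aspa, Car2 and Gpr17) and 1 as higher (Apod), where 1.53% and 0.722% of all genes passed. DESeq2 added Enpp6 to these 5 (5 lower, 1 higher), with 2.03% and 0.851% of its tested genes passing. The calls therefore depend on the test, and below the quasi-likelihood and likelihood ratio values are both given.

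**Figure D1:**
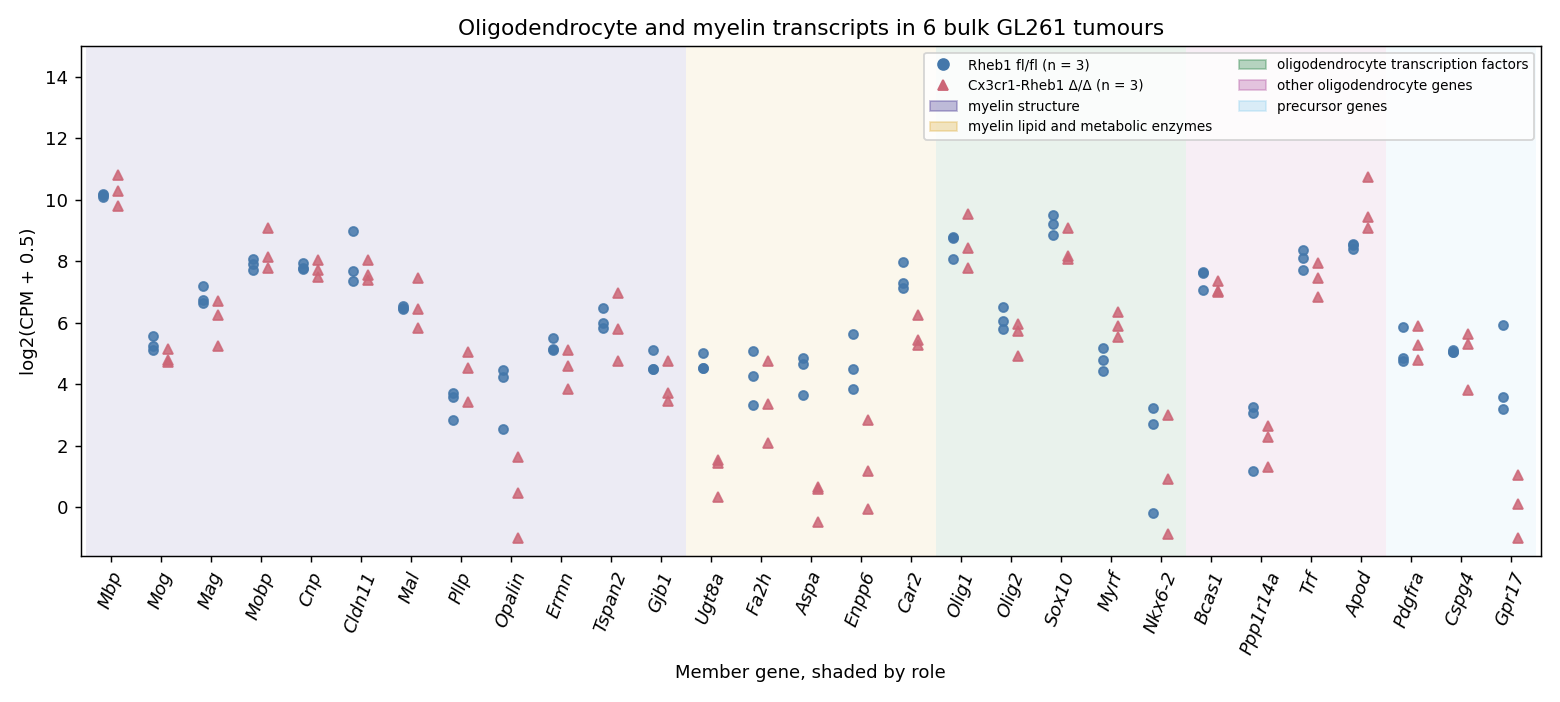
Normalised level of each of the 29 members in the 6 bulk tumours, as log2(CPM + 0.5), with genes ordered and shaded by role and 1 symbol per tumour (circles Rheb1 fl/fl, triangles Cx3cr1-Rheb1 Δ/Δ, n = 3 each). The triangles lie below all circles for Opalin, Ermn, Ugt8a, Aspa, Enpp6, Car2 and Gpr17 and above them for Myrf and Apod.

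The role of myelin lipid and metabolic enzymes had the most negative median fold change of the 5 roles. All 5 of its genes had a negative log2 fold change, with a median of -3.25 beside -0.26 for the 12 structural genes. In 4 of 5 the Cx3cr1-Rheb1 Δ/Δ tumours lay wholly below the others, as they did for 9.2% of all genes. The grouping into roles was chosen here, and Cnp, also an enzyme, stands with the structural genes (log2 fold change -0.07). The medians depend on this grouping. Ugt8a, the galactosyltransferase that makes cerebroside (chr3:125865271-125938619, GRCm38), stood at 22.3, 32.1 and 22.7 CPM in WT35, WT38 and WT110. In KO26, KO36 and KO37 it stood at 2.39, 0.763 and 2.19 CPM. The 3 Rheb1 fl/fl tumours were thus all about an order of magnitude above the others (log2 fold change -3.85 ± 0.86 SE, adjusted p = 0.171 by the quasi-likelihood test and 0.0025 by the likelihood ratio test of edgeR). Aspa, aspartoacylase, which frees acetate from N-acetylaspartate for lipid synthesis (chr11:73304992-73329596), had 519, 270 and 396 counts in the Rheb1 fl/fl libraries. It had 3, 17 and 19 counts in KO26, KO36 and KO37. Its log2 fold change was -4.82 ± 1.06 SE (edgeR adjusted p = 0.166 and 0.00157 by the respective tests). Car2, carbonic anhydrase 2, an enzyme of myelin and oligodendrocyte cytoplasm that choroid plexus and blood cells also make (chr3:14886273-14900770), was the most abundant of the group. Its levels were 157, 253 and 138 CPM in Rheb1 fl/fl and 74.8, 38.5 and 43.0 CPM in Cx3cr1-Rheb1 Δ/Δ tumours. The lowest Rheb1 fl/fl value was above the highest Cx3cr1-Rheb1 Δ/Δ value, and the log2 fold change was -1.81 ± 0.38 SE (edgeR adjusted p = 0.154 and 0.00256). Car2 also passed the quasi-likelihood test when genes were required to hold at least 10 counts in every library (adjusted p = 0.0381) and without a filter on low counts (0.0375). In these fits 62 and 102 genes passed in all, respectively, where the main fit had 0.

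Enpp6, a choline phosphodiesterase of newly formed oligodendrocytes (chr8:46986887-47096762), stood at 13.9, 48.8 and 21.9 CPM in Rheb1 fl/fl tumours. It stood at 1.75, 6.68 and 0.469 CPM in KO26, KO36 and KO37 (log2 fold change -3.25 ± 1.04 SE, edgeR adjusted p = 0.33 by the quasi-likelihood and 0.0638 by the likelihood ratio test). Its groups did not overlap either, but its fold change ranged from -4.67 without KO36 to -2.63 without WT38. Fa2h, the fatty acid 2-hydroxylase of myelin galactolipids, was the gene of this role whose groups overlapped, and its fold change was the smallest of the role. Its levels were 9.44, 18.8 and 33.6 CPM in WT35, WT38 and WT110 and 3.79, 9.67 and 26.8 CPM in KO26, KO36 and KO37, so that the groups overlapped (-0.62 ± 0.85 SE, edgeR adjusted p = 0.882). Single libraries moved this value widely, to -1.61 without KO37 and to -0.10 without WT110. With each library left out in turn, the log2 fold change stayed between -4.11 and -3.49 for Ugt8a, between -5.15 and -4.39 for Aspa and between -2.17 and -1.53 for Car2.

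Each tumour also gives the ratio of enzyme to structural transcripts, in which the amount of oligodendrocyte RNA in the piece cancels in part. WT35, WT38 and WT110 held 10.8, 16 and 9.76 enzyme counts per 100 counts of the 12 structural genes (12.2 ± 3.33 SD, n = 3). KO26, KO36 and KO37 held 3.68, 1.73 and 4.28 (3.23 ± 1.33 SD, n = 3), which is 26.5% of the Rheb1 fl/fl mean. The 3 values of one genotype were all above those of the other. Car2 supplied most of these counts. Without it the ratios were 3.47, 4.89 and 4.16 in Rheb1 fl/fl and 0.361, 0.556 and 1.77 in Cx3cr1-Rheb1 Δ/Δ tumours, so that the groups again did not overlap and the mean was 21.5% of that in Rheb1 fl/fl. On the TPM scale, without Aspa, which the bulk TPM table does not list, the ratio was 6.97, 11.8 and 5.30 against 3.28, 1.6 and 4.15. The ratio was chosen after the gene values were seen, depends on placing Cnp among the structural genes, and carries no test. The microglia and macrophage sum given above separated the same tumours in the same direction.

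**Figure D2:**
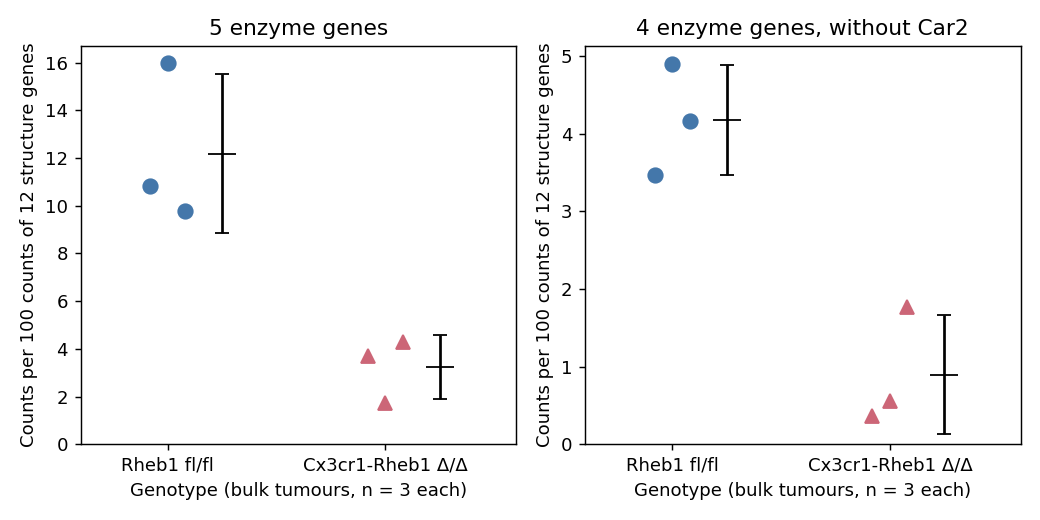
Counts of the myelin lipid and metabolic enzyme genes per 100 counts of the 12 structural myelin genes in each bulk tumour, for all 5 enzyme genes (left) and without Car2 (right), with the mean ± SD beside the 3 points of each genotype. The Cx3cr1-Rheb1 Δ/Δ tumours lie between 1.73 and 4.28 on the left, all below the lowest Rheb1 fl/fl tumour at 9.76.

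The structural myelin transcripts had fold changes on both sides of 0. Of the 12, 8 had negative and 4 positive fold changes, and none passed either edgeR test. Summed per tumour, they reached a mean of 2297 CPM with an SD of 165 over the 3 Rheb1 fl/fl tumours, and 2412 CPM with an SD of 791 over the 3 others. Mbp, myelin basic protein, which compacts the sheath and whose gene also makes golli transcripts outside the lineage, alone made up 20.9% to 30.4% of all member counts in bulk. It stood at 1162, 1145 and 1094 CPM in WT35, WT38 and WT110 and at 1232, 1786 and 888 CPM in KO26, KO36 and KO37. The Rheb1 fl/fl tumours were nearly equal, and the others spread to both sides of them (log2 fold change 0.20 ± 0.32 SE, edgeR adjusted p = 0.901). Mobp, a basic protein of compact myelin, stood at 209, 270 and 239 CPM against 282, 544 and 219 CPM, a log2 fold change of 0.54 that was 0.065 without KO36. Mobp, Mbp, Mal and Apod were all highest in KO36, the library with the most choroid plexus RNA. Without KO36, the fold changes of Mbp and Mal turned negative (-0.10 and -0.32 on the log2 scale). Mal, a proteolipid of the myelin raft, otherwise stood at 89.1, 93.3 and 86.0 CPM against 87.3, 176 and 56.2 CPM.

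Cnp, a phosphodiesterase of uncompacted myelin, was the most even member, with 216 to 246 CPM in Rheb1 fl/fl and 181 to 261 CPM in Cx3cr1-Rheb1 Δ/Δ tumours (log2 fold change -0.07 ± 0.28 SE). Mog, a surface protein of the outermost lamella, stood at 34.2, 37.3 and 46.9 CPM against 25.6, 27.0 and 34.7 CPM, with 1 Cx3cr1-Rheb1 Δ/Δ tumour just inside the Rheb1 fl/fl range. Mag, the adhesion protein that faces the axon, stood at 99.7, 146 and 107 CPM against 74.9, 103 and 37.6 CPM (-0.71 ± 0.40 SE), but its log2 fold change was 0.31 on the TPM scale. Cldn11, the tight-junction claudin of myelin, had a log2 fold change of -0.50, which rested on WT110 (505 CPM) and was 0.13 without it. Gjb1, connexin 32, and Tspan2, a tetraspanin, had overlapping groups, at 10.4 to 34.4 CPM and 26.4 to 125 CPM over all bulk tumours. By TPM the groups were apart for Gjb1 (21.8 to 27.1 TPM against 4.48 to 17.8 TPM) and for Mog (20.1 to 31.5 TPM against 14.0 to 15.2 TPM). The log2 fold change of Gjb1, -0.66, was -1.20 without KO37. Pllp, plasmolipin, had 6.57 to 12.6 CPM in Rheb1 fl/fl and 10.1 to 32.2 CPM in Cx3cr1-Rheb1 Δ/Δ tumours (1.07 ± 0.73 SE).

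Opalin and Ermn, structural genes of late oligodendrocytes, had groups that were apart by CPM. Opalin, a transmembrane glycoprotein of mature oligodendrocytes (chr19:41061710-41077113), had 97, 476 and 294 counts in WT35, WT38 and WT110 and 0, 41 and 17 in KO26, KO36 and KO37. Its levels of 5.36 to 21.3 CPM against at most 2.61 CPM gave a log2 fold change of -3.67 ± 1.51 SE (edgeR adjusted p = 0.488 by the quasi-likelihood and 0.203 by the likelihood ratio test). Ermn, ermin, a cytoskeletal protein of the same stage, stood at 44.4, 35.2 and 34.3 CPM against 34.0, 23.6 and 13.8 CPM, with WT110 and KO26 nearly equal (-0.68 ± 0.51 SE, edgeR adjusted p = 0.742). By TPM the groups of Ermn overlapped, at 5.35, 3.93 and 3.34 TPM against 3.98, 4.94 and 1.95 TPM.

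For the 5 transcription factors the 2 scales gave different pictures. By CPM the groups were apart for Myrf alone, which was higher in Cx3cr1-Rheb1 Δ/Δ tumours, and by TPM they were apart for Sox10 and Olig2, which were lower. Myrf, the membrane-bound factor that drives myelin gene expression (chr19:10208272-10240748), stood at 27.4, 20.9 and 35.3 CPM in WT35, WT38 and WT110 and at 46.2, 59.5 and 80.8 CPM in KO26, KO36 and KO37 (log2 fold change 1.16 ± 0.43 SE, unadjusted p = 0.0205 in edgeR's quasi-likelihood test fitted across all genes, adjusted p = 0.43). On the TPM scale its groups overlapped by 1 tumour, at 5.94, 3.15 and 9.11 TPM against 9.19, 7.48 and 11.1 TPM. Sox10, which acts at all stages of the lineage, stood at 590, 724 and 459 CPM against 267, 289 and 545 CPM. It was low in KO26 and KO36 and within the Rheb1 fl/fl range in KO37 (-0.69 ± 0.35 SE, edgeR adjusted p = 0.608). By TPM all 3 were below, at 190, 125 and 252 TPM in KO26, KO36 and KO37 against 444, 402 and 405 TPM in WT35, WT38 and WT110. Olig1 was highest in KO37 at 739 CPM and lowest in KO36 at 218 CPM, on both sides of the Rheb1 fl/fl tumours at 266 to 442 CPM, and without KO37 its log2 fold change moved from 0.18 to -0.45. Olig2, its neighbour on chromosome 16 and the factor that specifies the lineage, stood at 66.2, 54.4 and 91.1 CPM against 29.9, 52.4 and 61.3 CPM (-0.56 ± 0.40 SE), and at 33.6 to 58.6 TPM against 19.1 to 32.6 TPM, where the nearest tumours were almost equal. Nkx6-2 had 7, 134 and 144 counts against 20, 118 and 1, and its log2 fold change of -0.77 was -2.81 without KO36. KO37 listed Nkx6-2 at 9.89 TPM on 1 count, and Inpp5a on the other strand overlaps 12.9% of its exonic bases.

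Apod was the member with the largest positive fold change. It encodes apolipoprotein D, a secreted lipid carrier that oligodendrocytes, fibroblasts and reactive glia make (chr16:31296192-31314808). Its levels were 375, 334 and 367 CPM in WT35, WT38 and WT110 and 694, 1715 and 542 CPM in KO26, KO36 and KO37. All 3 Cx3cr1-Rheb1 Δ/Δ tumours were above the highest Rheb1 fl/fl tumour, by a wide margin only in KO36 (log2 fold change 1.45 ± 0.42 SE, edgeR adjusted p = 0.251 by the quasi-likelihood and 0.0472 by the likelihood ratio test). Without KO36 the log2 fold change was 0.78. On the TPM scale the groups overlapped, with 450, 355 and 532 TPM against 814, 1626 and 474 TPM, so that KO37 lay below WT110. The sum of 9 pericyte and fibroblast genes was 316 to 370 CPM in Rheb1 fl/fl and 122 to 343 CPM in Cx3cr1-Rheb1 Δ/Δ tumours, lowest in KO36. Trf, transferrin, the iron carrier of oligodendrocytes and choroid plexus, stood at 208, 276 and 331 CPM against 113, 176 and 245 CPM (-0.61 ± 0.34 SE), and its groups were apart by TPM, at 229 to 361 TPM against 113 to 159 TPM. A read-through gene of the same strand, Gm20425, covers 63.5% of the exonic bases of Trf, so reads of Trf could be lost or split in counting. Bcas1, a protein of early myelinating cells, stood at 134 to 199 CPM against 128 to 162 CPM (-0.33 ± 0.30 SE). Ppp1r14a, a phosphatase inhibitor, was low but present, with 28 to 203 counts in the bulk tumours.

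Among precursor genes, the groups were apart for Gpr17 and overlapped for Pdgfra and Cspg4. Gpr17, a receptor of committed precursors on chromosome 18, had 207, 195 and 959 counts in WT35, WT38 and WT110 and 0, 9 and 30 in KO26, KO36 and KO37. The 11.4, 8.72 and 59.6 CPM of the Rheb1 fl/fl tumours lay above 0, 0.572 and 1.56 CPM in the others (log2 fold change -5.19 ± 1.43 SE, edgeR adjusted p = 0.229 by the quasi-likelihood and 0.0109 by the likelihood ratio test). WT110 held most of its counts, and without it the log2 fold change was -3.82. Pdgfra, the growth factor receptor of precursors, stood at 28.7, 26.3 and 57.1 CPM against 58.5, 27.0 and 38 CPM (0.14 ± 0.50 SE). Cspg4, the NG2 proteoglycan of precursors and pericytes, stood at 32.5, 34.0 and 32.8 CPM against 39.4, 13.7 and 49.2 CPM (0.04 ± 0.54 SE). An interval of 2 SE on either side of these 2 values still includes a change of the kind seen for Mag in either direction.

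**Figure D3:**
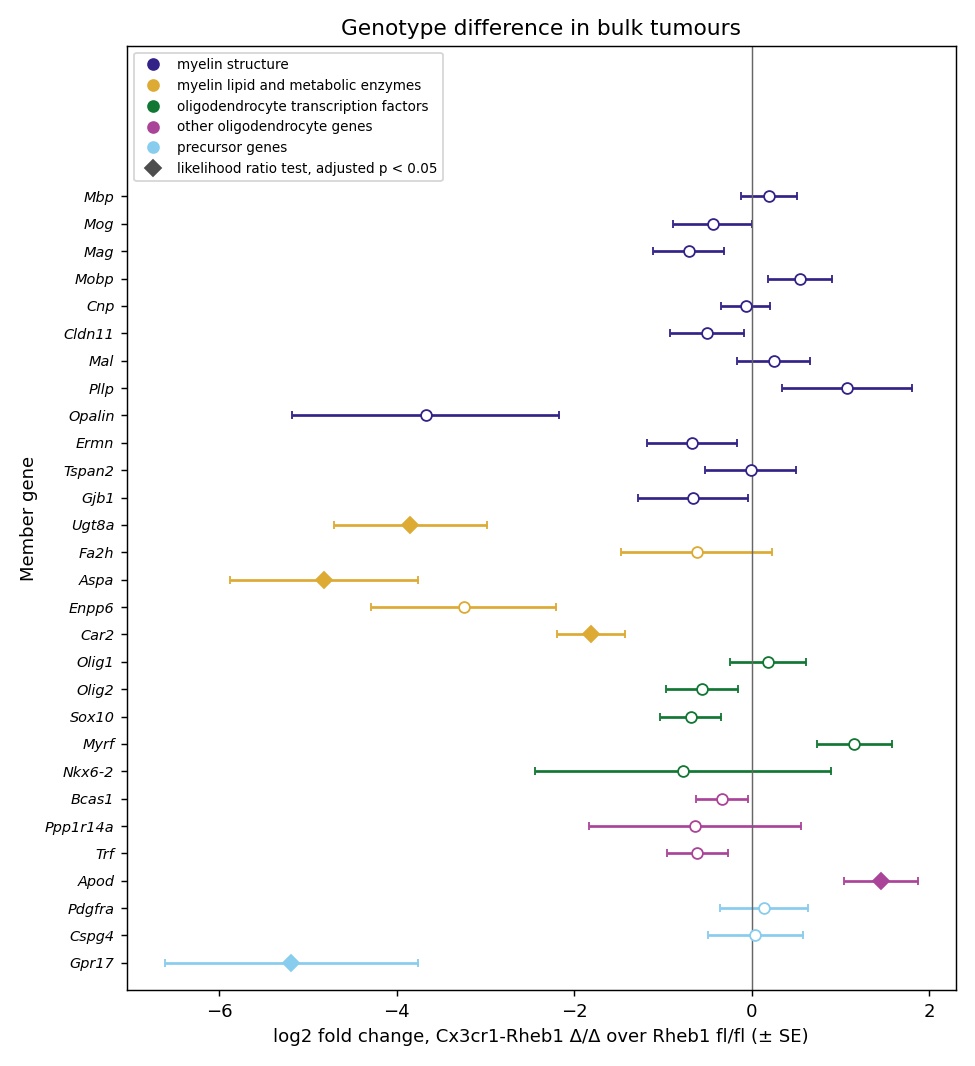
Log2 fold change (± SE) of each member in bulk tumours, Cx3cr1-Rheb1 Δ/Δ over Rheb1 fl/fl (n = 3 each), coloured by role. Filled diamonds mark the 5 members that passed the likelihood ratio test (Ugt8a, Aspa, Car2, Gpr17 and Apod), and no member passed the quasi-likelihood test.

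Further genes of the lineage, from a list of 24 oligodendrocyte and a list of 10 precursor genes, were also looked at. Of the 24, 16 had a negative and 8 a positive fold change, with a median log2 fold change of -0.35. At an unadjusted p under 0.05, 4 were lower, among them Anln, Adamts4 and Klk6, and 0 higher. Over all genes, 5.19% were lower and 3.82% higher at this p. Adamts4 and Klk6 passed the likelihood ratio test as lower, where 1.53% of all genes did. Klk6, a secreted protease of oligodendrocytes, stood at 79.2, 85.7 and 94.8 CPM against 34.1, 37.9 and 30.7 CPM, tight within each genotype (log2 fold change -1.34 ± 0.34 SE, edgeR adjusted p = 0.206 by the quasi-likelihood and 0.039 by the likelihood ratio test). Adamts4, a metalloproteinase of mature oligodendrocytes, stood at 20.2, 30.9 and 34.5 CPM against 1.68, 6.61 and 5.58 CPM. Anln, anillin, which dividing cells also use in cytokinesis, stood at 195, 185 and 202 CPM against 82.1, 50.7 and 113 CPM. Among the 8 positive genes the smallest p values belonged to Plekhb1 (log2 fold change 0.42 ± 0.30 SE) and Nkx2-2, a factor of differentiating precursors (1.20 ± 1.09 SE). Of the 10 precursor genes, 7 were negative and 3 positive, and none passed either edgeR test. At an unadjusted p under 0.05, 2 were lower, among them Ptprz1, and 0 higher, beside the same shares of all genes. Tnr, tenascin-R, and C1ql1 had the smallest p of the positive ones (log2 fold changes 1.36 ± 0.65 SE and 1.05 ± 1.07 SE). Ptprz1, a receptor phosphatase also made by glioma cells and astrocytes, stood at 292, 336 and 454 CPM against 292, 189 and 113 CPM. The lists of neurons, astrocytes and endothelial cells had medians of 0.33, -0.11 and 0.51 on the same scale. The microglia and macrophage list had a median of -1.80, and all 6 of 8 T cell genes that were tested were negative, also with a median of -1.80. The T cell genes were low, with sums of 33.1 to 119 CPM in Rheb1 fl/fl and 9.75 to 23.7 CPM in Cx3cr1-Rheb1 Δ/Δ tumours. By flow cytometry and staining, the study reports more CD4 and CD8 T cells in Cx3cr1-Rheb1 Δ/Δ tumours. The part of these cell types in the lineage values was not tested.

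The TPM values divide by transcript length and allow levels of different genes to be set side by side. In Rheb1 fl/fl tumours Mbp had the highest mean (592 TPM), followed by Apod (446 TPM), Sox10 (417 TPM) and Olig1 (397 TPM). In Cx3cr1-Rheb1 Δ/Δ tumours the order was Apod (971 TPM), Mbp (522 TPM), Olig1 (359 TPM) and Sox10 (189 TPM). In both orders the range of each gene overlapped that of its neighbours. Over all 6 tumours Trf (209 TPM), Cnp (112 TPM), Cldn11 (103 TPM) and Mobp (75.4 TPM) came next. Ugt8a, Enpp6 and Gpr17 were at the low end with 1.56, 1.85 and 2.90 TPM. On this scale Ugt8a stood at 2.67, 3.73 and 2.24 TPM in Rheb1 fl/fl and 0.264, 0.137 and 0.296 TPM in Cx3cr1-Rheb1 Δ/Δ tumours, and Car2 at 64.1, 100.2 and 41.9 TPM against 26.3, 18.7 and 15.9 TPM, again with groups that did not overlap. By TPM the Cx3cr1-Rheb1 Δ/Δ tumours lay wholly below for 10 of the 28 members listed (Mog, Opalin, Gjb1, Ugt8a, Enpp6, Car2, Olig2, Sox10, Trf and Gpr17) and wholly above for 0, where 10.1% and 6.24% of all genes in the table did. No member passed limma's moderated test on log2(TPM + 1).

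The second question was how much of these transcripts the sorted TAM-MG carried, since macrophages take up myelin and sorted cells can carry free RNA. The 29 members took 0.0258% to 0.0483% of the counts of the 5 TAM-MG libraries, about an order of magnitude below bulk. Beads for removing myelin were used on the dissociated tissue, but not on the fixed bulk tissue. Between 9 and 15 members had 0 counts in each library. By counts all 29 members had negative fold changes in TAM-MG against bulk, where the median of all genes was -0.893 on the log2 scale, and 21 passed the quasi-likelihood test, where 32.4% of the 21342 genes tested passed as lower (25 and 38.3% by the likelihood ratio test). RNA source, fixation, myelin removal and sorting differ along with the cell type and cannot be told apart. The enzymes Ugt8a and Enpp6 had 0 counts in all 5 TAM-MG libraries, where 3 counts would have been 0.1 to 0.144 CPM. The share of the bulk level was unequal between members. Mean CPM in TAM-MG as a share of bulk was 3.46% for Mbp, 4.64% for Mobp and 4.21% for Mog, but 0.385% for Cldn11, 0.31% for Myrf and 0.3% for Pdgfra. It was 34.7% for Mag, 44.4% for Cnp and 59.0% for Pllp, which were among the 8 members that did not pass, with Opalin, Fa2h, Aspa, Nkx6-2 and Gpr17. Pllp (log2 fold change -0.07 ± 1.02 SE), Cnp (-0.61) and Mag (-0.89) were not below the median of all genes. Of the exonic bases of Pllp, 54.2% lie within exons of Gm45767 on the other strand, from which its reads cannot be told apart without strand. Over whole lists, the share was 1.31% for neurons and 9.995% for astrocytes, while the microglia and macrophage genes stood at 2807% of bulk.

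**Figure D4:**
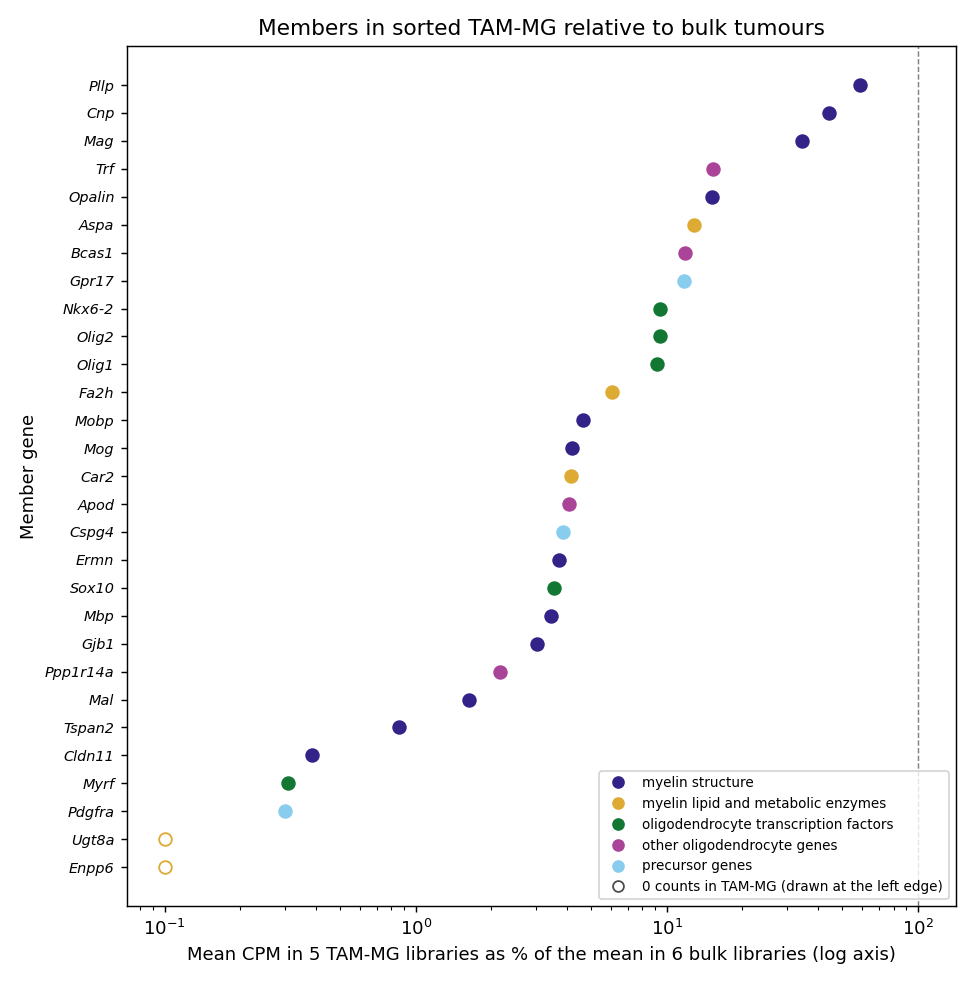
Mean CPM of each member in the 5 TAM-MG libraries as a percentage of its mean in the 6 bulk libraries, on a log axis, ordered from highest to lowest and coloured by role. Pllp, Cnp and Mag lie at 34.7% to 59.0%, most members between 2% and 16%, and Ugt8a and Enpp6 had no counts and are drawn as open symbols at the left edge.

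Cnp had the most counts of the members in TAM-MG, with 3073, 1557 and 2457 counts in KO54, KO63 and KO65 and 3244 and 1854 in WT74 and WT78. Dnajc7 on the other strand overlaps 4.23% of the exonic bases of Cnp, where reads cannot be told apart because the libraries do not mark strand. Mag had 881, 968 and 474 counts in the Cx3cr1-Rheb1 Δ/Δ and 854 and 847 in the Rheb1 fl/fl libraries. Mbp had 605 to 1345 counts and was present in each library. Trf had 412 to 1157 counts in TAM-MG, yet its TPM values there were 845 to 2142, above the 113 to 361 TPM in bulk tumours. Trf is therefore lower in TAM-MG by counts and higher by TPM, and its direction is uncertain. Olig1 (2867 counts) and Sox10 (1120 counts) were highest in WT74 and at most 1272 and 583 counts in the other 4 libraries. WT74 and WT78 had 840 and 1160 CPM of proliferation genes, and KO54, KO63 and KO65 had 346 to 726 CPM. The part of cells other than TAM-MG in these values was not tested.

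Within TAM-MG, 20 of 29 members passed the filter on low counts and none passed the quasi-likelihood test between genotypes (0% of 14872 genes lower and 0% higher, smallest adjusted p = 0.502). The members left out were Opalin, Ermn, Tspan2, Ugt8a, Enpp6, Myrf, Nkx6-2, Ppp1r14a and Pdgfra. With 2 Rheb1 fl/fl libraries, most members depended on single libraries. Opalin (187 counts) and Ermn (174 counts) were found in WT74 only. Mobp had 121, 414 and 242 counts in the Cx3cr1-Rheb1 Δ/Δ libraries but 0 and 765 in WT74 and WT78. Mbp was 40.8, 51.6 and 52.0 CPM in KO54, KO63 and KO65 and 35 and 31.2 CPM in WT74 and WT78, with groups that did not overlap and a small log2 fold change of 0.54 ± 0.35 SE (edgeR adjusted p = 0.758). Bcas1 (0.846, 2.49 and 22.2 CPM against 43.4 and 23.9) and Olig2 (3.92, 1.34 and 5.95 CPM against 8.43 and 8.46) were lower in each Cx3cr1-Rheb1 Δ/Δ library, with adjusted p of 0.776 and 0.886 in the same edgeR test. The share of all genes with groups apart in TAM-MG was not counted, so no result is read from these separations.

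Car2 was the member whose genotype difference was not the same in the 2 sources. In TAM-MG it had 159, 178 and 266 counts in KO54, KO63 and KO65 and 0 in both WT74 and WT78. The 6 choroid plexus genes summed to 20.2, 55.2 and 308 CPM in the same Cx3cr1-Rheb1 Δ/Δ libraries and to 0 and 23.3 CPM in WT74 and WT78, and their part in the Car2 counts was not tested. The Cx3cr1-Rheb1 Δ/Δ libraries together held 8.24 CPM, at least 139-fold higher than the floor of 3 counts over both Rheb1 fl/fl libraries (0.0592 CPM), and at least 57.1-fold with WT78 alone. Car2 passed the likelihood ratio test (edgeR adjusted p = 0.00582, among 1.18% of all genes that passed as higher) but not the quasi-likelihood test (adjusted p = 0.502). In bulk tumours, where Car2 was 38.5 to 253 CPM, the direction was the opposite one. The difference between the 2 genotype effects passed edgeR's quasi-likelihood test over all 11 libraries (adjusted p = 0.00697), as did 0.197% of all genes in this direction, and Car2 was the only member to do so. The fitted size of that difference depends on how libraries at 0 are treated, and is not read as a fold. Mal had 14, 3 and 182 counts in the Cx3cr1-Rheb1 Δ/Δ and 0 in both Rheb1 fl/fl TAM-MG libraries, mostly from KO65, and its difference between the sources did not pass the quasi-likelihood test (edgeR adjusted p = 0.259) but passed the likelihood ratio test (0.0062, where 3.11% of all genes passed as higher and 0.806% as lower). Apod, higher in the bulk Cx3cr1-Rheb1 Δ/Δ tumours, was 22.3, 17.1 and 18.4 CPM in KO54, KO63 and KO65 and 56.2 and 18.8 CPM in WT74 and WT78. For Apod the difference between the sources was negative and likewise passed the likelihood ratio test (edgeR adjusted p = 0.0476) but not the quasi-likelihood test (0.254). The same held for Ermn, found only in WT74 among the TAM-MG libraries (edgeR adjusted p = 0.0154 and 0.276).

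**Figure D5:**
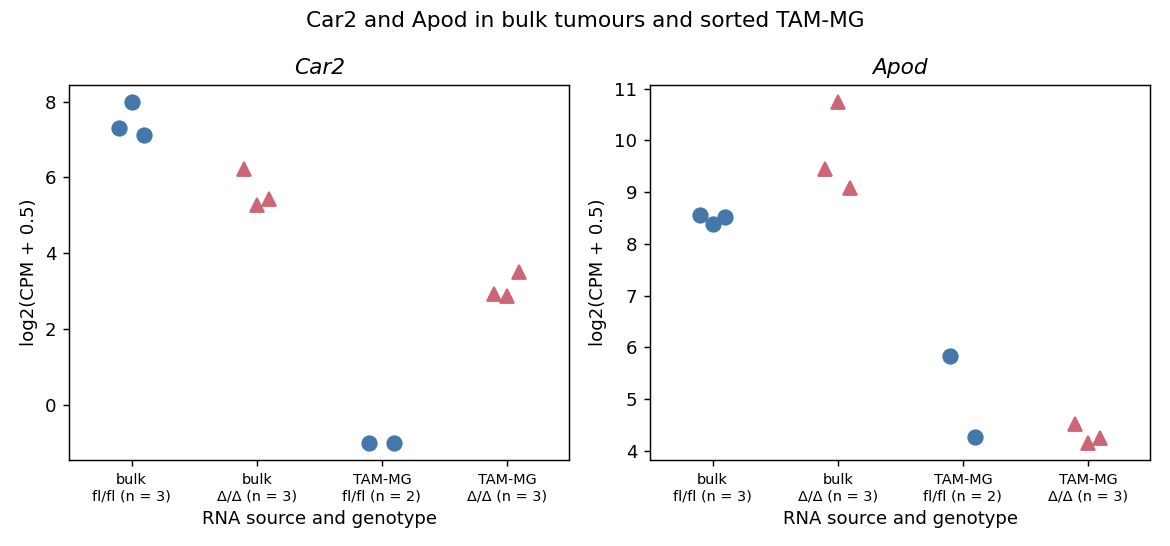
Normalised level of Car2 (left) and Apod (right) as log2(CPM + 0.5) in each library, by RNA source and genotype (bulk n = 3 and 3, TAM-MG n = 2 for Rheb1 fl/fl and 3 for Cx3cr1-Rheb1 Δ/Δ). Car2 is lower in all Cx3cr1-Rheb1 Δ/Δ bulk tumours and is present at 6.82 to 10.8 CPM in the Cx3cr1-Rheb1 Δ/Δ TAM-MG libraries, against 0 counts in both Rheb1 fl/fl libraries.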

How the data were processed

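RNA was measured in 6 bulk tumour and 5 TAM-MG libraries (SmartSeq2 and NexteraXT, which do not mark strand). The authors deposited raw counts per Ensembl gene (STAR) and TPM values (Salmon), with GRCm38 as the build in the submitters' processing notes. The deposited TAM-MG TPM values were read as a score, because an unnamed line of totals, left out here, doubles their sum. The TPM tables list 12719 genes for bulk and 34839 for TAM-MG and were normalized separately, so TPM was tested only within a table.

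Counts were analysed in R 4.3.3 with edgeR 4.0.16 (filterByExpr with a minimum count of 10 and a minimum total of 15, TMM scaling, quasi-likelihood test, Benjamini-Hochberg adjustment over all genes tested). Calls required a fold of at least 1.5 and an adjusted p under 0.05. CPM are TMM-scaled, except shares of bulk, which use library size. The SE comes from the fold change and its F statistic. Alternatives were the likelihood ratio test, DESeq2 1.42.0, other scalings and filters, limma 3.58.1 on log2(TPM + 1) or log2(TPM + 0.1) for genes at 1 TPM or more in 2 libraries, a fit of all 11 libraries, and leaving out each library. The tests were also run on simulated counts, with changes set only in well-expressed genes and a smaller spread between libraries than in these data. That run does not show how the tests behave here. Symbols were found for 99.4% of identifiers, and positions come from GENCODE. The floor of 3 counts covers counting error only, and p-values measure the spread between samples, which may be technical.

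The members and the other gene lists were chosen with earlier results of these data known. All 29 members are named. The rule for other lists was to name called genes, or else those with the smallest p in either direction. It was kept for the lineage lists, where some further genes at an unadjusted p under 0.05 were added after their values were seen. The other cell type lists are given as counts, sums and medians only. Some genes of these lists are not reported here.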

Additional observations from a re-analysis of the deposited data

Results flagged for a closer look

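The genotype difference of Car2 stood out because it differed between the 2 RNA sources by a test of the difference itself. On the log2 scale the difference between the effects was 12.54 ± 1.10 SE (edgeR's quasi-likelihood test over 11 libraries, adjusted p = 0.00697), with lower levels in 3 of 3 Cx3cr1-Rheb1 Δ/Δ bulk tumours and counts in 3 of 3 Cx3cr1-Rheb1 Δ/Δ but 0 of 2 Rheb1 fl/fl TAM-MG libraries. The size is no measured fold, because the Rheb1 fl/fl TAM-MG libraries are at 0. The adjusted p ranged from 0.00642 to 0.0338 with each library left out in turn. The gene could not be tested under the requirement of 10 counts in every library. The TPM table lists Car2 at 5.16, 5.64 and 8.19 TPM in KO54, KO63 and KO65 and at 0 and 0.0161 TPM in WT74 and WT78.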

How the results depend on the processing

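No paired analysis was possible because the groups compared share no replicate number. In bulk, genes called numbered 0 in the quasi-likelihood test, 383 in the likelihood ratio test (4 members lower, 1 higher), 474 in DESeq2 (5 and 1), 62 with 10 counts in every library and 102 without a filter (1 member lower each, Car2), 2 on log2(TPM + 1) with or without a filter, 27 on log2(TPM + 0.1) and 18 in the fit of 11 libraries. Without 1 library the count was 0 to 8 (8 without KO37), with 0 members. The median of members in bulk was -0.36 on log2(TPM + 1), with or without a filter. Leaving out a library moved it between -0.57 and -0.26 (without WT110).

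Members whose fold change turned in bulk had values from -0.71 (Mag) to 0.25 (Mal), and none was called. On log2(TPM + 1), with or without a filter, and on log2(TPM + 0.1) these were Bcas1 (0.21 and 0.21), Tspan2 (0.060 and 0.036), Pdgfra (-0.33 and -0.48), Mag (0.31 and 0.32), Cspg4 (-0.28 and -0.35), Olig1 (-0.27 and -0.27) and Mbp (-0.27 and -0.27). Scaled to the same mean log CPM, which put the median of all genes at 0.149, Tspan2 was 0.16 and Cnp 0.060. Cspg4 was -0.054 by library size, and Tspan2 0.0088 in the fit of 11 libraries. Over the libraries left out, the range crossed 0 for Mal (-0.32 to 0.56), Cldn11 (-0.82 to 0.13), Tspan2 (-0.78 to 0.37), Pdgfra (-0.20 to 0.57), Cspg4 (-0.32 to 0.42), Cnp (-0.22 to 0.046), Olig1 (-0.45 to 0.51) and Mbp (-0.10 to 0.41).

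In TAM-MG, genes called numbered 0 in the quasi-likelihood test, 245 in the likelihood ratio test, 477 in DESeq2, 40 on log2(TPM + 0.1) and 65 in the fit of 11 libraries, with 1 member, Car2, in each of the last 4, and 0 without any 1 library. The median of the members tested ranged from -0.61 to 2.35 without 1 library (2.35 without WT78). Scaled to the same mean log CPM, which put the median of all genes at -0.477, Cspg4 (-0.17), Trf (-0.20), Cnp (-0.56) and Mbp (-0.024) turned. On log2(TPM + 1) and log2(TPM + 0.1), Mag (0.027 and 0.025), Mobp (0.43 and 1.80) and Cnp (-0.37 and -0.39) turned, and Cspg4 was -0.054 without a filter. Leaving out a library gave ranges across 0 for Mag (-0.44 to 0.27), Mobp (-1.91 to 11.1), Aspa (-4.48 to 6.04), Cnp (-0.29 to 0.27), Sox10 (-1.71 to 0.47), Apod (-1.53 to 0.057), Olig1 (-2.42 to 0.90), Mog (-1.67 to 5.10), Gpr17 (-0.24 to 8.72), Gjb1 (-3.48 to 5.67), Cldn11 (-2.12 to 2.35) and Cspg4 (-0.65 to 8.23).

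TAM-MG against bulk gave 4571 genes called, 9 members and a median of -3.04 with 10 counts in every library, where fewer genes were tested, and 8314 to 10936 genes, 18 to 24 members and a median of -6.93 to -4.21 without 1 library. The difference between genotype effects gave 48 genes, 835 in the likelihood ratio test (2 members higher, 2 lower), 8 with RLE factors, 3 (0 members) with 10 counts in every library, and 1 to 361 (361 without WT78, 1 without WT35 or WT110), with 1 to 2 members higher and 0 to 1 lower, without 1 library. The cause of the other changes was not tested. The TPM alternative for comparisons across sources was not run, because the TPM tables were normalized separately. With 2 or 3 libraries a group, members under about 10 counts a library limit what could be detected.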
